A study of Rattus norvegicus with 6 samples.

Results

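A set of 9 genes that mark the proximal tubule or the renal epithelial lineage were examined in NRK-52E cells with and without streptozotocin (STZ). They were Lrp2, Cubn, Slc34a1, Slc5a2, Aqp1, Hnf4a, Pax2, Pax8 and Cdh16, and they were found by gene symbol among the 18930 rows of a table of raw counts. Of the 9 genes, 7 had a row, and 1, Aqp1, had at least 10 reads in all 6 samples. The NRK-52E line was derived from the epithelium of normal rat kidney, and its genotype is given as WT. STZ is a glucose-linked nitrosourea that alkylates DNA. The STZ group held 3 samples kept for 24 h in 10 mM STZ, and the Control group held 3 samples given the vehicle. All 6 came from the same line, and no label names separate cultures as their origin. The p-values therefore measure the spread between these samples, which may be technical. Total counts were between 10430924 and 12737131 in Control and between 11658253 and 15191349 in STZ.

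The proximal tubule reabsorbs most of the filtrate of the kidney. Its cells take up filtered protein through megalin (Lrp2) and cubilin (Cubn), phosphate through NaPi2a (Slc34a1), glucose through SGLT2 (Slc5a2), and water through the aquaporin-1 channel (Aqp1). The nuclear receptor Hnf4a drives the mature proximal tubule program. Pax2 and Pax8 are paired-box factors that set up the renal lineage, and Cdh16 encodes the kidney-specific cadherin. Cultured tubular lines are known to lose many of these products.

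In these cells Aqp1 fell with STZ, to 5.43 ± 0.662 CPM (counts-per-million) after scaling by the trimmed mean of M values (TMM) from 13.0 ± 3.67 in Control (SD, n = 3 each). It was the only gene of the 9 with enough reads for a test. Lrp2, Cubn, Slc34a1, Slc5a2, Pax8 and Cdh16 had between 0 and 10 reads in any sample, in Control as well as in STZ. The table had no row named Hnf4a or Pax2, or with a RefSeq synonym of either, and these genes were not analysed here. Rows that carry only an Ensembl identifier could not be searched for them, or for listed genes given below as without a row. The defining proximal tubule markers Lrp2, Cubn, Slc34a1 and Slc5a2 were at or near 0 in the Control and the STZ libraries. Of other proximal tubule genes, 13 of 37 for transport and 7 of 33 enzymes had at least 10 reads in all samples. Among the enzymes, Ggt1 had 451 to 1220 reads and Mme 223 to 309. Whether the cells keep a proximal tubule identity was not tested.

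**Figure D1:**
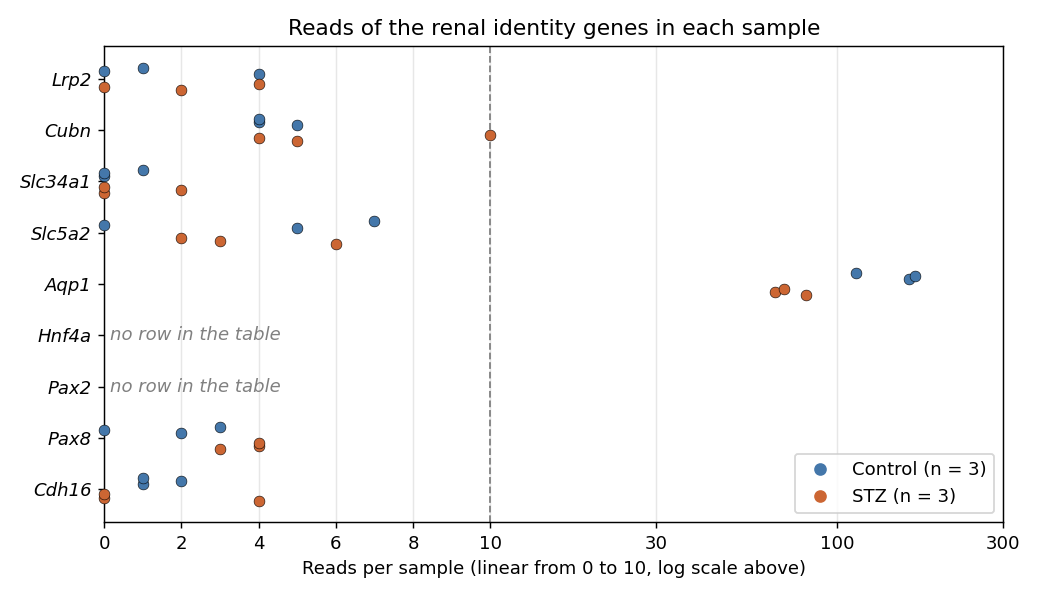
Reads of each of the 9 genes in the 3 Control and 3 STZ samples, on an axis that is linear up to 10 reads (dashed line) and logarithmic above. Aqp1 alone lies above 10 reads in every sample, with all 3 STZ points (66 to 81 reads) below all 3 Control points (113 to 167 reads).

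The promoters of Aqp1 and Slc34a1 are shown because both carry a TATA box near the start site, while their reads were the most and the fewest of the 7 genes with a row, with at least 66 reads of Aqp1 and at most 2 of Slc34a1 in any sample. The windows run from 250 bases before to 50 bases after the annotated start and come from RefSeq (build GRCr8), which is not the build used for counting. They are read 5′ to 3′ on the strand of the gene. Reads were not divided by transcript length, so they do not rank the genes by level. Aqp1 lies at chr4:85812534-85812833 on the plus strand and Slc34a1 at chr17:9238934-9239233 on the minus strand. Capitals mark the letters TATAAA of the TATA box.
Aqp1: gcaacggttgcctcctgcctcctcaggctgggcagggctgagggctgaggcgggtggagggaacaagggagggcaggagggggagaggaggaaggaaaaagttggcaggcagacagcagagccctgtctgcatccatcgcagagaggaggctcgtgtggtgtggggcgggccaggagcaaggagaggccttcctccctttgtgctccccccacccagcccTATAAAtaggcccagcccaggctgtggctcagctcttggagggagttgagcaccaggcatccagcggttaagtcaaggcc
Slc34a1: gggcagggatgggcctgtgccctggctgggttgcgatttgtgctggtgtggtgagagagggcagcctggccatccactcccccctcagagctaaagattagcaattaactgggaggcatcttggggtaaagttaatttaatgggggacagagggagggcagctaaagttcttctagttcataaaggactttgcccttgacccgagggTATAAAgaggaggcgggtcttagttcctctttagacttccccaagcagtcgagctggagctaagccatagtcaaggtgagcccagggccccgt
TATAAA began at position -30 in Aqp1 and at -43 in Slc34a1, counted from the start site as 0. Searched on both strands, TATAAA was present in 14.2% of 33469 rat promoter windows of the same length. Promoters were matched for 8 of the 9 genes, and among these TATAAA was found for Aqp1 and Slc34a1 only. A match of letters is a description of the window and not a measured binding site.

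Aqp1 encodes the constitutive water channel of the proximal tubule and thin descending limb, and is also abundant in the endothelium of small vessels. Its reads numbered 161, 167 and 113 in Control and 81, 66 and 70 in STZ, in the order of replicates 1 to 3. The same samples held 15.2, 15.2 and 8.80 normalised CPM in Control and 5.88, 5.73 and 4.67 in STZ. The groups did not overlap, although Control replicate 3 was well below the other two Control samples. STZ replicates were closer together than Control replicates, with a coefficient of variation of 12.2% against 28.2%. The log2 fold change of Aqp1 was -1.25 with a standard error of 0.16, which is 2.38-fold lower with STZ. The quasi-likelihood test of edgeR gave an adjusted p of 9.4e-09 (Benjamini-Hochberg, 11870 genes tested). Aqp1 thus passed both limits the study set, 0.05 for the adjusted p-value and 1 for the size of the log2 fold change. By the adjusted p-value alone, 50.9% of all genes tested were called and 25.1% were lower. With both limits, 3.37% were called, of which the lower genes were 1.11% and the higher genes 2.26% of all tested. In 27.7% of all genes tested the STZ samples all lay below the Control samples. Counted from the most negative log2 fold change, Aqp1 ranked 54 of 11870. This rank moved with the filter on low counts, to 33 of 11297 with at least 10 counts in all samples, 150 of 13209 at 0.5 CPM in 1 sample and 1597 of 18930 with no filter. The rank was 88, 94 and 93 without Control replicate 1, Control replicate 2 and STZ replicate 3, in that order. Aqp1 made up 86.9% to 96.5% of the reads of the 7 genes in Control and 77.8% to 83.5% in STZ. Without Control replicate 3 the log2 fold change of Aqp1 was -1.49, and without Control replicate 2 it was -1.13. In RNA from a whole culture, less Aqp1 RNA per cell and fewer cells that make it cannot be told apart.

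**Figure D2:**
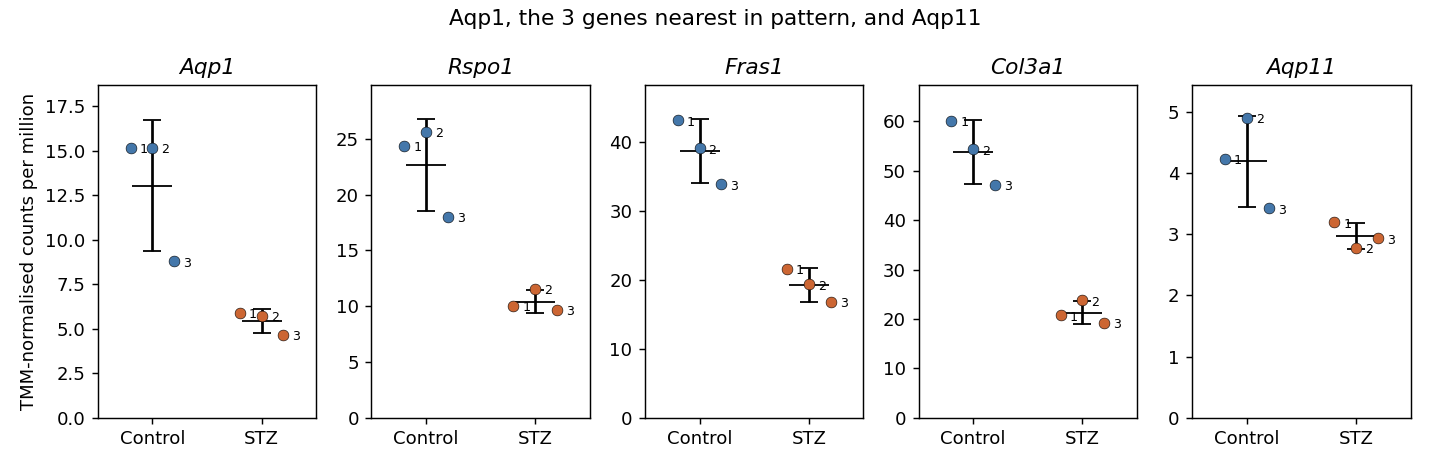
TMM-normalised CPM of Aqp1, of the 3 genes whose pattern over the 6 samples was nearest to it (Rspo1, Fras1, Col3a1) and of Aqp11. Points are samples with their replicate number, and bars are the mean and SD (n = 3). In every panel each STZ sample lies below each Control sample, and Control replicate 3 is the lowest of its group.

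Among 9890 named genes with a mean of at least 50 reads, Rspo1, Fras1 and Col3a1 lay nearest to Aqp1, with a root mean square difference of 0.13, 0.19 and 0.20 between log2 profiles centred on their own means over 6 samples (the median of all candidates was 0.64). Rspo1 encodes a secreted enhancer of Wnt signaling, Fras1 a basement membrane protein needed for kidney development, and Col3a1 a fibrillar collagen. Rspo1 had 259, 282 and 231 reads in Control and 138, 133 and 145 in STZ. Reads of Col3a1 numbered 638, 598 and 605 in Control and 285, 274 and 289 in STZ. Likeness was measured on the same samples as the fall of Aqp1, so the fall of these genes is part of what selected them.

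Aqp1 was set beside the other aquaporins. Of 9 other family members, 6 had a row and only Aqp11, an intracellular channel of the proximal tubule, was tested. Aqp11 had 45, 54 and 44 reads in Control and 44, 32 and 44 in STZ. Its log2 fold change was -0.48 (adjusted p = 0.042 from the same edgeR test), and the call was lost with limma-voom, with DESeq2 and on leaving out any sample other than Control replicate 3. Aqp3, Aqp5, Aqp7, Aqp8 and Aqp9 had at most 6 reads in any sample.

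The endocytic receptors Lrp2 and Cubn bind filtered proteins together at the brush border. Lrp2 had 4, 0 and 1 reads in Control and 2, 0 and 4 in STZ. Cubn had 5, 4 and 4 reads in Control and 5, 4 and 10 in STZ. The groups overlapped in both genes, and Cubn was the only one of the 6 low genes with a read in every library. Pooled over the libraries of a group, Cubn had 13 reads in Control and 19 in STZ, a ratio of STZ over Control in CPM of 1.22 with a 95% exact interval of 0.572 to 2.69. For Lrp2 the pooled reads were 5 and 6, and the interval of the ratio was 0.255 to 4.15. These intervals hold counting error only and compare the libraries, not the conditions.

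The general endocytic machinery that these receptors use was well represented. Of 29 genes of receptor-mediated endocytosis, 27 had at least 10 reads in all samples, which is 93.1% of the list against 59.7% of all rows. Amn, the membrane partner that cubilin needs to reach the surface, had 0 reads in 5 samples and 1 in the other. Of the 27 tested, 13 were higher and 2 lower with STZ (adjusted p under 0.05), while 25.9% of all genes tested were higher. The share over all genes was not matched for read number. The median log2 fold change was 0.14 against -0.01 over all genes tested. Rab7a, a GTPase of late endosomes, had the smallest p and rose from 199 ± 2.60 to 276 ± 5.69 normalised CPM (log2 fold change 0.47). Dnm2, the dynamin that cuts vesicles from the membrane, rose with a log2 fold change of 0.33, and Ap2s1, an adaptor subunit of clathrin coats, with 0.26. Those lower were Snx17 (log2 fold change -0.19), which recycles receptors of the LDL receptor family, and Dab2 (-0.13), the adaptor of megalin, whose call was lost without STZ replicate 1. When libraries were scaled by their size only, 4 genes of this list rather than 2 were lower. Lrpap1, the chaperone of megalin, was not past the threshold (0.09, adjusted p = 0.092 from the edgeR test).

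Slc34a1 and Slc5a2 encode the apical sodium-coupled carriers of phosphate and glucose. Slc34a1 had 0, 0 and 1 reads in Control and 0, 2 and 0 in STZ, so 4 of 6 libraries held none. A library with 0 reads still allows up to 3 reads, or 0.197 to 0.288 CPM in these libraries. Slc5a2 had 5, 0 and 7 reads in Control and 6, 3 and 2 in STZ, and the groups overlapped. The pooled ratio was 0.766 for Slc5a2 (95% exact interval 0.306 to 1.90) and 1.67 for Slc34a1 (0.0870 to 98.6). Both intervals hold 1, and a difference between the groups was not detectable at this depth.

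**Figure D3:**
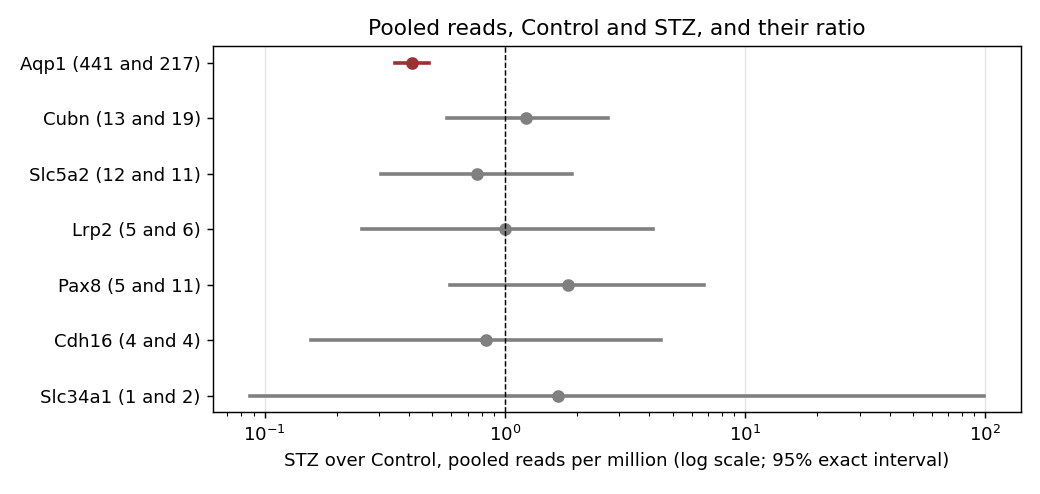
Ratio of STZ over Control in CPM, pooled over the 3 libraries of each group, for the 7 genes with a row, on a log scale with 95% exact intervals for counting error. The pooled reads of Control and STZ stand beside each name, and among these genes the interval leaves out 1 only for Aqp1.

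Of 37 other genes of proximal tubule transport, 27 had a row and 14 were tested. In this list 4 genes were higher and 5 lower, beside 25.9% and 25.1% of all genes tested. The glucose carriers Slc5a1 and Slc2a2 had at most 2 reads per sample. The phosphate carriers Slc20a1 and Slc20a2, which are present in most cells, had at least 374 reads per sample. Slc20a1 was higher with STZ (log2 fold change 0.15, adjusted p = 0.0061 from the edgeR test), a call lost without Control replicate 1, and Slc20a2 was not past the threshold (-0.10). Slc7a9, the light chain of the cystine carrier of the brush border, rose most, from 29, 46 and 36 reads in Control to 180, 141 and 188 in STZ. This was a log2 fold change of 1.97 ± 0.15 (standard error) with an adjusted p of 2.1e-14 in the edgeR test. Slc3a1, the heavy chain it pairs with, was not past the threshold (0.31, adjusted p = 0.24 from that test). Slc9a3r1, the scaffold NHERF1 that anchors NaPi2a in the brush border, fell from 478 ± 21.6 to 358 ± 9.96 normalised CPM (log2 fold change -0.42). Atp1b1, the beta subunit of the sodium pump, was higher (0.19). Fxyd2, the tubular modulator of the pump, rose from 9, 12 and 18 reads in Control to 31, 26 and 52 in STZ. The anion exchanger Slc26a6 fell (-0.64). The median of the 14 genes was 0.03.

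Of 33 enzymes of the proximal tubule, 9 were tested, with 3 higher and 3 lower, when 50.9% of all genes tested were called. Ggt1, the brush border gamma-glutamyltransferase, rose from 45.0 ± 2.69 to 75.0 ± 6.71 normalised CPM (log2 fold change 0.73, adjusted p = 1.9e-13 from the edgeR test). Dpp4, a brush border peptidase, had 11, 3 and 9 reads in Control and 33, 19 and 26 in STZ (1.52). The urea cycle enzyme Asl rose with 0.40. Dpep1, a dipeptidase of the brush border, fell from 20, 19 and 14 reads to 6, 4 and 6 (-1.93, adjusted p = 7.5e-05 from that test). Cyp27b1, which activates vitamin D, fell with -0.83, and catalase (Cat) with -0.13. The Cat call was lost without Control replicate 1 and without STZ replicate 2. Mme was not past the threshold (0.03, adjusted p = 0.8 from the edgeR test).

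**Figure D4:**
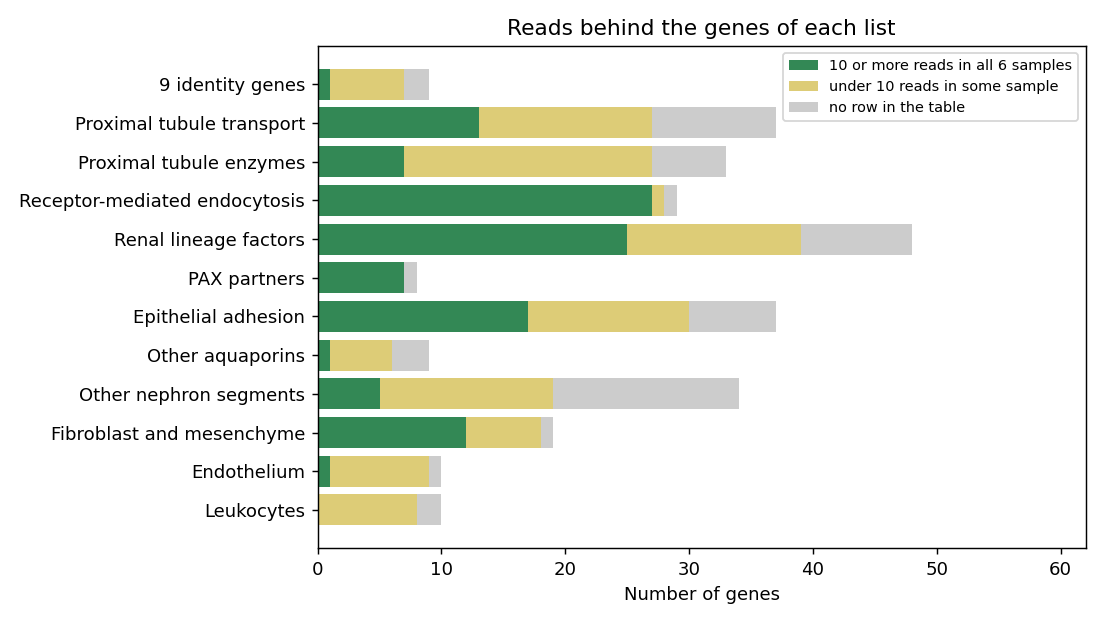
Number of genes in each list with at least 10 reads in all 6 samples, with under 10 reads in some sample, and without a row. Such reads were present for 1 of the 9 identity genes, 13 of 37 transport genes and 7 of 33 enzymes of the proximal tubule, against 27 of 29 endocytosis genes.

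Pax8 maintains the renal epithelial program and Cdh16 is among its known targets. Pax8 had 2, 0 and 3 reads in Control and 3, 4 and 4 in STZ, and Cdh16 had 1, 2 and 1 reads in Control and 4, 0 and 0 in STZ. In Pax8 every STZ sample had at least as many reads as the highest Control sample, but the groups overlapped in CPM. The pooled ratio was 1.84 for Pax8 (95% exact interval 0.589 to 6.75) and 0.836 for Cdh16 (0.156 to 4.49). With no filter on low counts, 0 of the 6 low genes had an adjusted p under 0.05 in the edgeR test, and the unadjusted p was under 0.05 for 0 of them. The smallest unadjusted p among the 6 was 0.327 (Pax8) with edgeR and 0.421 (also Pax8) with DESeq2.

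Among 48 other factors and signals of renal development, 25 (52.1%) had at least 10 reads in all samples, against 59.7% of all rows. Of the 48, 26 were tested, with 9 higher and 5 lower, where 25.9% and 25.1% of all genes tested were, and the median log2 fold change was 0.09. Npnt, a matrix ligand of the outgrowing ureteric bud, rose from 1073, 1059 and 1085 reads to 1927, 1646 and 2072 (log2 fold change 0.58). Wnt4, the signal for the epithelial conversion of nephron progenitors, rose from 47, 37 and 58 reads in Control to 129, 140 and 126 in STZ (1.26, adjusted p = 1.4e-08 from the edgeR test). Wnt11, made at the tips of the ureteric bud, fell from 61, 76 and 91 reads to 48, 42 and 40 (-1.03, adjusted p = 4.8e-06 from that test). The zinc-finger factor Mecom fell with -0.34. Among these factors the highest reads of Lhx1 and Sall1 were 2 and 1.

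Of 8 genes whose products are known to work with PAX proteins, 7 were tested, with 4 lower and 1 higher (25.1% and 25.9% of all genes tested). Paxip1 (PTIP), which links PAX2 to histone methyltransferases, had a log2 fold change of -0.40, and the methyltransferases Kmt2d and Kmt2c had -0.32 and -0.19. The higher gene was Tle4, a corepressor (0.11). That call was lost with no filter on low counts and with the filter of 0.5 CPM in 1 sample. It was also lost when libraries were scaled by size only or by the upper quartile, and with DESeq2. The same held without Control replicate 2, STZ replicate 2 or STZ replicate 3.

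Cadherins other than Cdh16 were read in the list of epithelial adhesion, where 19 of 37 genes were tested, 8 were higher and 4 were lower (median 0.09), against 25.9% and 25.1% of all genes tested. Cdh3, P-cadherin, had 7082, 7164 and 8377 reads in Control and 7243, 5981 and 7703 in STZ, and fell from 657 ± 8.85 to 519 ± 6.25 normalised CPM (log2 fold change -0.34). Cdh1, E-cadherin, had between 16 and 35 reads per sample and overlapping groups, and its call (-0.69, adjusted p = 0.03 from the edgeR test) was lost with DESeq2 and without Control replicate 1, Control replicate 3, STZ replicate 1 or STZ replicate 3. The highest reads of Cdh6, an early proximal tubule cadherin, and of Cdh2 were 3 and 6. Krt8, a keratin of simple epithelia, rose from 11691, 12952 and 14950 reads to 21965, 18562 and 24040 (0.48). The other listed keratins did not share this rise. Krt7 had 13 to 19 reads per sample and was not past the threshold (-0.16), Krt18 had 0 to 3 reads, and Krt19 had no row. The tight junction gene F11r (0.28) rose, and the polarity gene Patj (-0.25) and the catenin gene Ctnnb1 (-0.12) fell, the latter call being lost without STZ replicate 3.

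**Figure D5:**
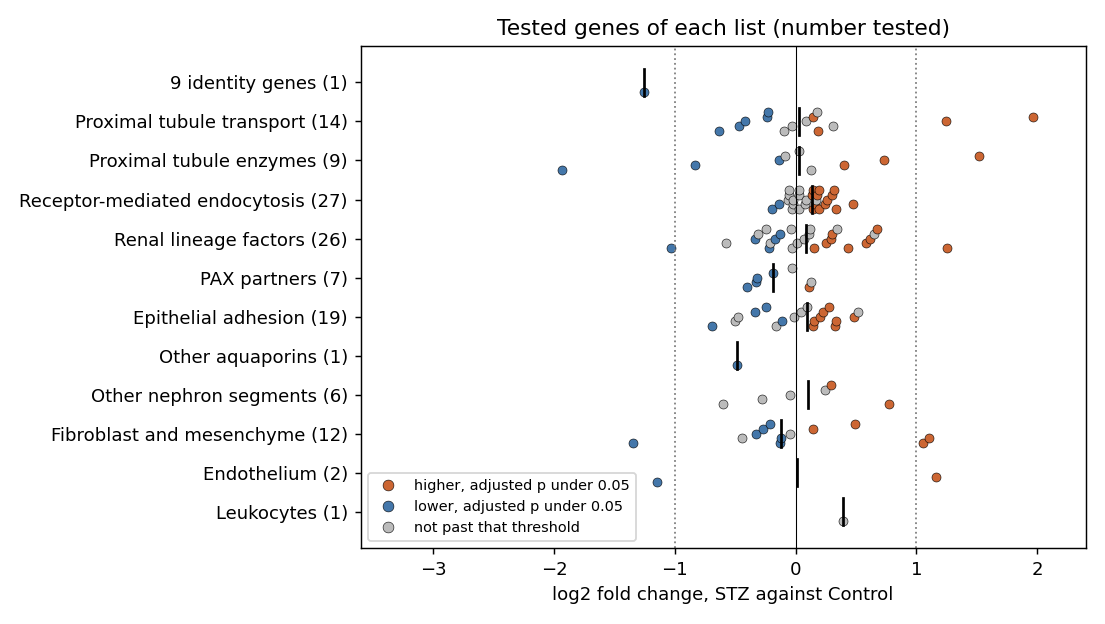
log2 fold change of STZ against Control for each tested gene of each list, coloured by the edgeR call, with the list median as a vertical bar. Dotted lines mark an absolute log2 fold change of 1, which Aqp1 passes at -1.25 while the medians of the lists with over 2 tested genes lie between -0.19 and 0.14.

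Markers of other cells were examined beside the fall of Aqp1. The defining endothelial markers Pecam1 and Cdh5 reached 2 reads at most. Kdr, the endothelial receptor of vascular growth factor, was too low for the main test, with 0, 2 and 1 reads in Control and 6, 9 and 7 in STZ, without overlap. With no filter on low counts its adjusted p was 0.00864 in the edgeR test. Of 10 endothelial genes, 2 were tested, with Eng higher (log2 fold change 1.17) and Vwf lower (-1.15). The summed level of that list was 5.30 to 6.59 normalised CPM in Control and 7.55 to 8.35 in STZ. Ptprc, which marks leukocytes, reached 1 read. Of 10 leukocyte genes, 1 was tested, Cd68, which was not past the threshold (0.40, adjusted p = 0.28 from the edgeR test). The summed level of the leukocyte list was 2.63 to 2.92 in Control and 2.95 to 3.85 in STZ.

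Mesenchymal genes were plentiful in both groups. Of 19, 12 were tested, with 4 higher and 6 lower, against 25.9% and 25.1% of all genes tested. Their summed level was 2533 to 2768 normalised CPM in Control and 2496 to 2503 in STZ, of which Vim made up 74.6%. Tagln (1.05), Snai2 (1.10) and S100a4 (0.49) rose, and Col3a1 (-1.35), Pdgfrb (-0.33) and Acta2 (-0.21) fell. The calls of Acta2 and of Vim (-0.12) were lost without Control replicate 3. Col1a2, Pdgfra, Thy1, Lum, Twist1 and Zeb2 were at 0 in some library, with at most 5 reads in any. The part of these genes in the fall of Aqp1 was not tested.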

How the data were processed

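RNA of 6 NRK-52E samples was sequenced from TruSeq stranded mRNA libraries. According to the study's methods, STAR 2.7.10a aligned reads to Rnor6 and featureCounts assigned uniquely mapped reads to genes. The strand setting is not given in the sources used here. The authors deposited raw counts without normalization, and all 6 columns were mapped to samples by their titles.

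Counts were scaled by TMM, filtered with filterByExpr and tested with edgeR 4.0.16 (quasi-likelihood) in R 4.3.3 with Benjamini-Hochberg adjustment over 11870 genes, in a design without covariates. The standard error of a log2 fold change was its size over the root of the F statistic. limma 3.58.1 and DESeq2 1.42.0 served as alternatives. Pooled ratios used raw library totals. On simulated counts of this comparison, 188 of 197 changed genes were recovered and 6 unchanged genes were called, among 11785 genes. The simulation gave every gene the same coefficient of variation between replicates (3.25%) and only log2 fold changes of at least 1 in size. It therefore does not give the recovery of smaller changes, or of genes with a wider spread such as Aqp1.

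Members and lists were chosen with earlier results of these data known. Genes named are the members, up to 3 called genes per direction and list by smallest p, the gene with the most counts in lists of other cells, and the 3 genes nearest to each member with 10 counts in all samples. Named outside this rule, after their values were seen, were Slc20a1, Slc20a2, Slc3a1, Mme, Lrpap1, Krt7 and Cdh1. So were the other segment markers not past the threshold, and the genes given as having few or no reads. Some genes that the rule names are not reported here. Within groups, every pair of samples differed beyond sampling noise (chi-square per degree of freedom of at least 1.85). With 3 against 3 samples, the smallest exact two-sided permutation p is 0.1, so none is given. No transcript lengths were used, so levels are not ranked between genes.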

Additional observations from a re-analysis of the deposited data

How the results depend on the processing

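Aqp1 was lower past both thresholds in all 15 refits, with a log2 fold change of -1.20 to -1.29 under other filters, scalings and tests and -1.49 to -1.13 with 1 sample left out. The number of members called, 1, did not move in these refits, although 7 members entered the test with no filter and 3 (Aqp1, Cubn and Slc5a2) at 0.5 CPM in 1 sample. Over all genes tested, 400 genes passed both thresholds, and 249 did with at least 10 counts in all samples, where fewer genes are tested. Across the 7 lists of renal and epithelial genes, 62 of 103 genes tested were called (60.2%, against 50.9% of all genes tested). The number called was 55 to 62 over the refits. These shares were not matched for read number, so they do not show an excess among renal genes. Control and STZ share replicate numbers, and across genes their deviations from the group means correlated with 0.046, -0.036 and 0.081. With 3 samples per group these values cannot tell whether samples were handled in pairs. A fit with the replicate block gave a log2 fold change of -1.24 for Aqp1, with 62 listed genes past the adjusted p-value and 398 of all genes past both thresholds. Low read counts limit what can be said of the other 6 members with a row.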

Other observations

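Of 34 markers of nephron segments outside the proximal tubule, 19 had a row and 6 were tested. Slc12a2, the sodium-potassium-chloride carrier found in most cells, had 1367, 1584 and 1984 reads in Control and 2342, 2006 and 2719 in STZ, and held 90.3% of the reads of the list. Its log2 fold change was 0.30 (adjusted p = 1.5e-06, edgeR with Benjamini-Hochberg adjustment). Trpm6, the magnesium channel of the distal convoluted tubule, had 81, 62 and 91 reads in Control and 169, 121 and 179 in STZ, without overlap, and a log2 fold change of 0.77 (adjusted p = 3.6e-06 from the same edgeR test). Over all genes tested, 25.9% were higher at that threshold. Cldn19, Scnn1a, Atp6v1b1 and Podxl were not past it. The table had no row named Umod, Slc12a1 or Avpr2, and Slc12a3 had between 2 and 4 reads per sample.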
